A study of Mus musculus with 8 samples.

Results

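Cardiomyocytes from Carm1 KO mice were compared between 1w and 3w of age, to ask how the transcriptome of Carm1-deleted heart muscle changed over these postnatal weeks. The comparison was set by the sample labels and used 4 of the 8 libraries of the series, 2 from KO at 1w and 2 from KO at 3w. The other 4 libraries came from control hearts at the same ages and served to test where the change in KO differed from the change without deletion. Carm1 is an arginine methyltransferase that acts on histones and other proteins. All mice carried floxed Carm1 alleles (Carm1fl/fl). KO mice had been injected with adeno-associated virus of serotype 9 carrying Cre recombinase, and control mice with the same serotype carrying GFP. The hearts were mosaic, so uninfected cardiomyocytes were present, and cells were isolated on a Langendorff perfusion system with no sorting described. Mice with Cre but no floxed alleles were not among the groups, so Cre itself cannot be told apart from the loss of Carm1. As far as the labels' numbering can be read, injection was on postnatal day 1 or 2 in the 1w libraries and on day 3 or 4 in the 3w libraries, so age and injection day cannot be told apart either. The labels do not say outright that the 2 libraries of a group came from different animals. The p-values rest on how far these libraries differ, a spread that may be technical. Chi-square per gene between the 2 libraries was 1.45 in KO at 1w and 1.68 at 3w, where counting noise alone gives about 1. In control it was 3.13 at 1w and 6.95 at 3w, and a single model was fitted to all groups. The common coefficient of variation beyond counting noise was 3.03%, so small p-values reflect little spread between libraries.

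Each KO library held between 30683549 and 36136575 gene counts. Mitochondrially encoded genes took 40.7% and 41.0% of the counts at 1w and 44.8% and 44.9% at 3w. The KO libraries carried a difference between the ages that the labels do not name. Summed over Ddx3y, Eif2s3y, Kdm5d and Uty, which lie on the Y chromosome, the KO libraries had 5025 and 4282 counts at 1w and 3 and 2 counts at 3w. In control the order was opposite, with 1 and 0 counts at 1w and 6765 and 4814 at 3w. Xist was listed at 0 in all 8 libraries. Among 6 X-linked genes known to escape inactivation, 5 were higher at 3w in KO. The call of 1 of the 5, Utp14a, was lost without KO_1w replicate 1 (adjusted p = 0.062), without KO_3w replicate 1 (0.069), with DESeq2 (0.070) and with the average of KO and control. The average of KO and control takes in the control change, here and below, so it does not test KO alone. Levels are given as CPM, counts per 1000000 of the scaled library size. Kdm6a, a histone demethylase of this group, measured 15.1 and 13.4 CPM at 1w and 31.6 and 31.3 CPM at 3w (log2 fold change 1.14, SE 0.067, adjusted p = 3.7e-23). Age in KO therefore cannot be told apart from this sex-linked difference, and the same holds for every difference from control given here. Whether each library matches its label was not tested.

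**Figure D1:**
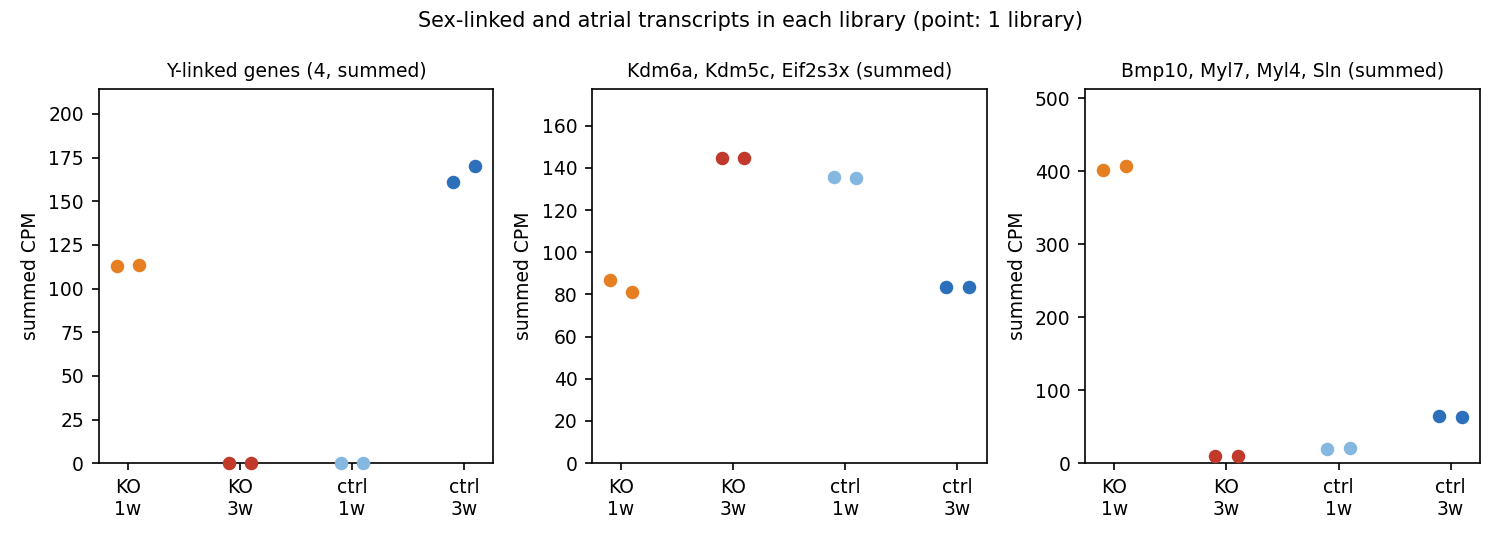
Summed CPM (vertical axes) in each of the 8 libraries, 1 point per library, for 4 Y-linked genes, 3 X-linked genes that escape inactivation and 4 atrial genes. The KO libraries go from 112.9 and 113.3 CPM of Y-linked transcripts at 1w to about 0 at 3w, and from 401.8 and 407.3 CPM of atrial transcripts to 9.85 and 9.38, while the control libraries move the other way.

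Carm1 itself measured 22.2 and 22.4 CPM at 1w and 17.3 and 17.8 CPM at 3w in KO (log2 fold change -0.34, SE 0.063, adjusted p = 3.1e-06). Control libraries held 40.5 and 39.1 CPM at 1w and 39.9 and 39.3 CPM at 3w. Carm1 was thus below control in each KO library at both ages, and lower in KO at 3w than at 1w without overlap. The labels do not give the floxed part, and the counts cover the whole gene.

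In the weeks after birth, heart muscle cells stop dividing, replace fetal with adult forms of contractile proteins, build the membrane system that couples excitation to contraction, and turn from glucose and lactate to fatty acids and other mitochondrial fuels. These steps are known together as cardiomyocyte maturation. The gene groups below follow those steps.

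Of 14665 genes tested, 9955 (67.9%) differed between KO at 3w and KO at 1w at an adjusted p under 0.05 in edgeR's quasi-likelihood test. Of these, 4874 (33.2% of genes tested) were higher at 3w and 5081 (34.6%) lower. At least 2-fold differences were found for 1098 genes (7.49%) that were higher and 2179 (14.9%) that were lower. Both 3w libraries lay outside both 1w libraries for 12209 genes (83.3%). Of the 9955 called genes, 15 had libraries that overlapped between the ages. A lack of overlap in the genes named below therefore adds little to their call. With so many genes called, the counts of called members of a group are read against these shares, and the median log2 fold change of a group against -0.02 over all genes tested. In a simulation built from the mean levels of these genes, 50 genes with a mean of at least 1 CPM were changed at each fold tried. Of those changed 1.5-fold 78% were recovered, and of those changed 2-fold 92%, and 7.30% of calls were unchanged genes. All other genes had equal means in every group, unlike here, so these rates need not hold for these data. The plot of log2 fold changes by gene list sets the groups side by side.

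**Figure D2:**
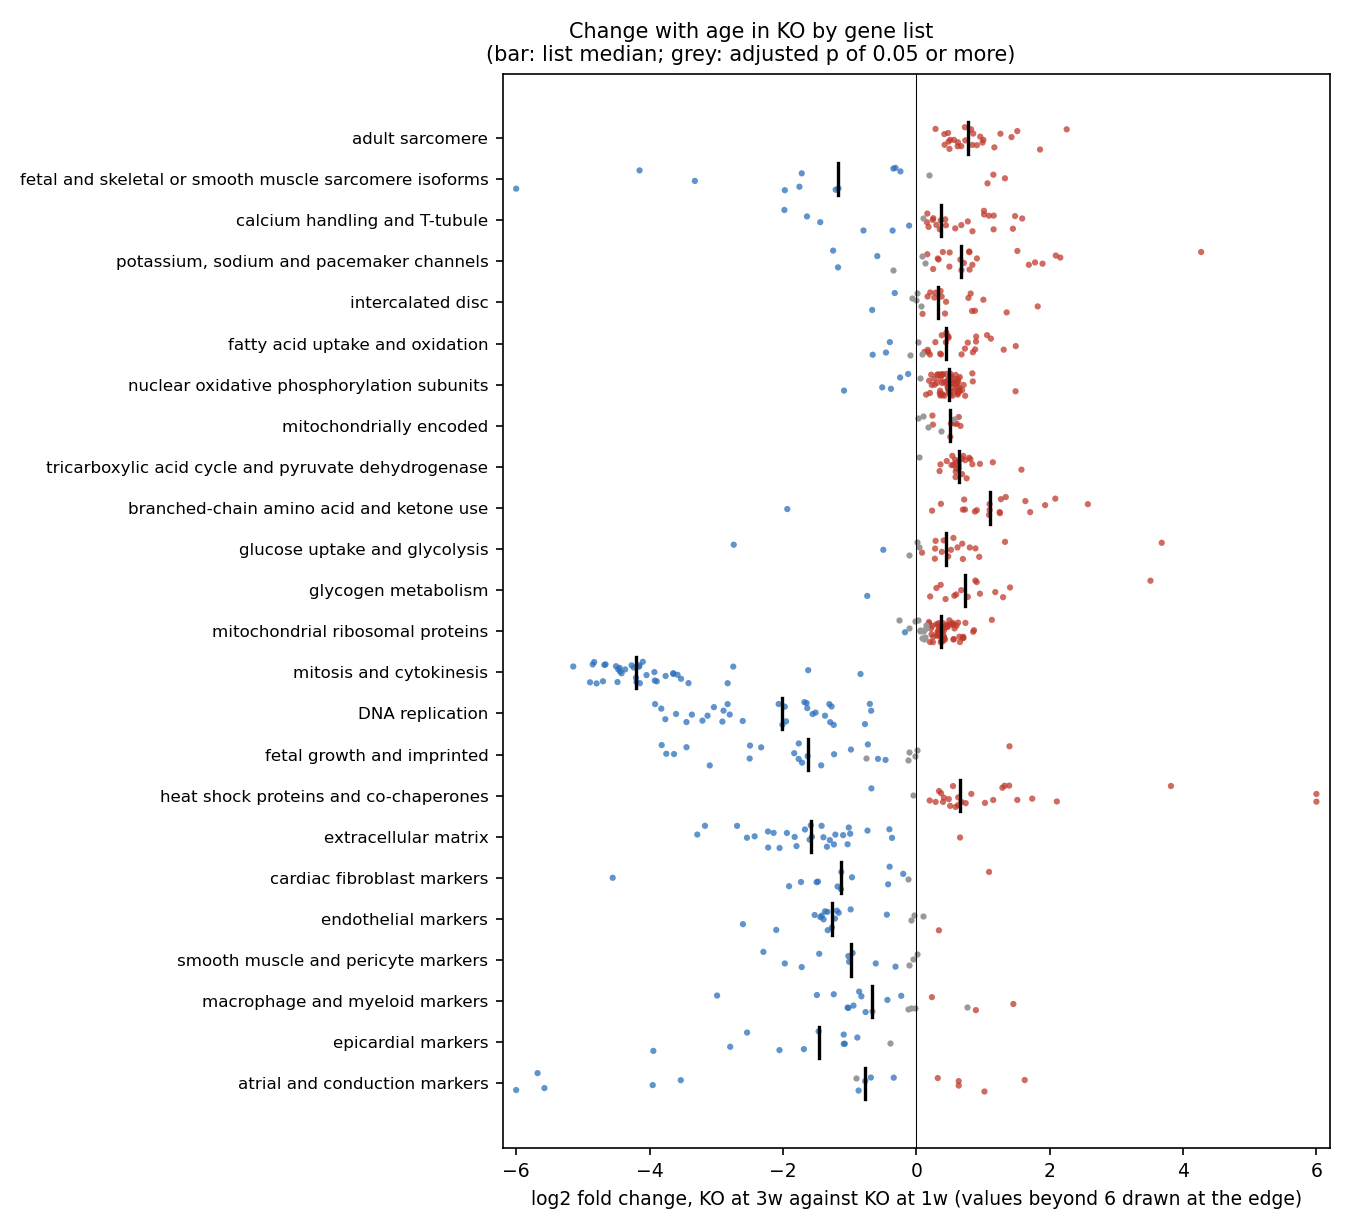
Log2 fold change of KO at 3w against KO at 1w (horizontal axis) for each tested member of 24 gene lists (vertical axis); 1 point is 1 gene, red called higher, blue called lower, grey not called, and the black bar is the list's median. Mitosis and cytokinesis lies farthest to the left with a median of -4.20, and branched-chain amino acid and ketone use farthest to the right with 1.10.

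Transcripts of dividing cells fell together. All 37 tested genes of mitosis and cytokinesis were lower in KO at 3w, 36 of them at least 2-fold, and the median log2 fold change was -4.20. Mki67, a proliferation marker, measured 76.9 and 76.7 CPM at 1w and 3.92 and 4.71 CPM at 3w, which is 17.8-fold lower (log2 fold change -4.15, SE 0.076, adjusted p = 2.7e-48). Ccna2, the cyclin of S phase and early mitosis, measured 29.3 and 30.9 CPM at 1w and 0.989 and 1.12 CPM at 3w (log2 fold change -4.83, SE 0.12). Cdk1, the kinase that drives entry into mitosis, measured 23.6 and 24.03 CPM at 1w and 1.13 and 1.05 CPM at 3w (log2 fold change -4.45, SE 0.12). Top2a, which untangles chromosomes, measured 54.8 and 52.6 CPM at 1w and 1.98 and 2.82 CPM at 3w (log2 fold change -4.48, SE 0.10). Ccnb1, the partner of Cdk1, measured 10.4 and 10.7 CPM at 1w and 0.494 and 0.209 CPM at 3w, and Aurkb, a kinase of cytokinesis, 4.92 and 5.37 CPM at 1w and 0.212 and 0.279 CPM at 3w. In each of these genes both 3w libraries lay below both 1w libraries. The smallest fall in the group was that of Cenpa, the centromeric histone, at -0.84 (SE 0.075). Anln and Ckap2l, also proteins of the dividing cell, were among the 10 largest falls of genes with a mean of at least 10 CPM in KO, with log2 fold changes of -4.50 and -4.44.

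Promoter sequences of these genes are shown because the group moved together. The CHR element (TTTGAA or TTCGAA) and the CCAAT box (CCAAT) are motifs known from promoters of genes that peak late in the cell cycle. RefSeq promoters of build GRCm38.p6, from 250 bases before to 50 bases after the start, were found for 31 of the 37 genes and for 10563 of the 14665 genes tested. On either strand, 27 of 32 mitosis promoters (84.4%) held a CHR element, against 13.7% of all 13550 promoters of tested genes. A CCAAT box was in 25 of 32 (78.1%), against 37.1%. This box was not particular to the mitosis list. It was in 20 of 32 DNA replication promoters (62.5%) and in 19 of 29 of the tricarboxylic acid cycle list (65.5%), where 25 of 26 genes were higher at 3w. The share was 46.7% for fatty acid uptake and oxidation and 41.8% for nuclear oxidative phosphorylation subunits. Among promoters of all genes at least 2-fold lower at 3w, 17.0% held a CHR element and 36.2% a CCAAT box. Below are 2 promoters with a CHR element, from the 3 such genes with the largest falls. The ranking left out the genes of 1 chromosome, so larger falls may exist among such genes. The promoters are printed 5′ to 3′ in the direction of the gene, with these motifs in capitals, read on either strand. Bub1b (checkpoint kinase of the spindle) lies at chr2:118597961-118598260 on the plus strand and Hmmr (a spindle protein) at chr11:40733388-40733687 on the minus strand.
Bub1b: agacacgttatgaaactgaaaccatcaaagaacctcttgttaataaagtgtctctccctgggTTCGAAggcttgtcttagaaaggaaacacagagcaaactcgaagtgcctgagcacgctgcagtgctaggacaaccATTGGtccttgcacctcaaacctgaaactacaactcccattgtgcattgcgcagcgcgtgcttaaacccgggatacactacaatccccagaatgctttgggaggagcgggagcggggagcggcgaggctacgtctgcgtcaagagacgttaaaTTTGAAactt
Hmmr: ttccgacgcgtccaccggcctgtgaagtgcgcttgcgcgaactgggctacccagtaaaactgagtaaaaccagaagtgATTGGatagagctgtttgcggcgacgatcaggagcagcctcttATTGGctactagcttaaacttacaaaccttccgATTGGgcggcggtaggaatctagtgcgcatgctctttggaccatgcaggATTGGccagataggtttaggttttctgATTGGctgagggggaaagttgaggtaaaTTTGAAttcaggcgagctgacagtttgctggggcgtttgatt
The Bub1b window held a CHR element at bases 63 to 68 and another at bases 291 to 296, counted from its 5′ end, where base 251 is the first after the start. The Hmmr window held 1 CHR element, at bases 259 to 264, and 5 CCAAT boxes. Ndc80, the gene of the 3 that is not printed, held 1 CHR element, at bases 280 to 285, and 0 CCAAT boxes. Bub1b measured 15.6 and 16.01 CPM at 1w and 0.494 and 0.593 CPM at 3w (log2 fold change -4.85, SE 0.16, adjusted p = 1.0e-36), and Hmmr 9.84 and 11.04 CPM at 1w and 0.459 and 0.349 CPM at 3w (log2 fold change -4.68, SE 0.20). A match of letters is a description of the window, not evidence of a bound factor.

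DNA replication genes fell as well: 31 of 31 tested were lower in KO at 3w, 28 at least 2-fold, with a median of -2.01. Rrm2, a subunit of the enzyme that makes deoxynucleotides, measured 30.01 and 30.7 CPM at 1w and 2.37 and 1.92 CPM at 3w (log2 fold change -3.82, SE 0.10, adjusted p = 1.2e-40). Mcm6, part of the replicative helicase, measured 31.2 and 28.1 CPM at 1w and 3.11 and 2.65 CPM at 3w (log2 fold change -3.37, SE 0.10). E2f1, a transcription factor of the G1/S transition, measured 14.04 and 13.00 CPM at 1w and 1.55 and 1.53 CPM at 3w (log2 fold change -3.13, SE 0.13). Pcna, the sliding clamp, which also serves DNA repair, measured 40.3 and 38.6 CPM at 1w and 13.9 and 12.97 CPM at 3w (log2 fold change -1.56, SE 0.064). An E2F element, searched as TTTGGCGC or TTTCCCGC on both strands, was in 9 of 32 promoters of this group (28.1%), against 2.69% of all promoters of tested genes and 3.90% of those of genes at least 2-fold lower. The promoter of Cdc6, a loader of the helicase, at chr11:98907901-98908200 on the plus strand, shows one in capitals, which reads as TTTCCCGC on the strand opposite to the one printed.
Cdc6: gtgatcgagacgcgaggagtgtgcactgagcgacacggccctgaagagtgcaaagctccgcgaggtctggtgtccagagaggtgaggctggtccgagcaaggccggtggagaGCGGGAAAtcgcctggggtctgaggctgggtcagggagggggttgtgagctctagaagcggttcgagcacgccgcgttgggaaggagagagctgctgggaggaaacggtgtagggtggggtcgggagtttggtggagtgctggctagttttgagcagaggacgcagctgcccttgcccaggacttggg
Cdc6 was a low transcript, at 2.61 and 2.25 CPM at 1w and 0.141 and 0.174 CPM at 3w (log2 fold change -3.92, SE 0.36).

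The G1 regulators were mixed, with 5 of 15 higher, 9 lower and 1 not called. Cdkn1a, the cyclin-dependent kinase inhibitor p21, rose 2.51-fold, measuring 46.4 and 46.5 CPM at 1w and 116 and 117 CPM at 3w (log2 fold change 1.32, SE 0.040, adjusted p = 4.7e-38). Ccng1, a cyclin induced by p53, rose 2.35-fold (log2 fold change 1.23, SE 0.031). Ccnd1 (cyclin D1) fell 2.34-fold (log2 fold change -1.23, SE 0.065). Ccnd2 (cyclin D2), at 139 and 141 CPM at 1w and 131 and 137 CPM at 3w, did not pass the test (log2 fold change -0.07, SE 0.035, adjusted p = 0.084). Ccnd2 was called lower with no filter on low counts (adjusted p = 0.014), with a mean of at least 1 CPM (0.023), with the 4 KO libraries alone (0.045) and with the average of KO and control. That average takes in the fall in control given next. Ccnd2 is a case where the KO change differed from control, which measured 234 and 225 CPM at 1w and 77.9 and 79.3 CPM at 3w (difference of the log2 changes 1.48, SE 0.050, adjusted p = 2.9e-34). The 4 KO libraries lay between the control libraries of 1w and those of 3w.

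Cell cycle transcripts in a bulk library can come from any cell type in it. Markers of non-muscle cells were lower at 3w too, as given further on, and their part in the falls was not tested. In these libraries, fewer cells of a type and less RNA per cell cannot be told apart. The summed level of the mitosis list was 641 and 643 CPM at 1w and 54.4 and 55.7 CPM at 3w in KO.

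Fetal growth genes, many of them imprinted, were lower in KO at 3w in 19 of 25 cases, 15 at least 2-fold, with a median of -1.63; 1 was higher and 5 were not called. H19, an imprinted noncoding RNA at chr7:142575529-142578143 on the minus strand, measured 348 and 352 CPM at 1w and 25.2 and 26.8 CPM at 3w, a 13.4-fold fall (log2 fold change -3.75, SE 0.041, adjusted p = 3.9e-62). Mest measured 68.9 and 74.7 CPM at 1w and 6.81 and 6.34 CPM at 3w (log2 fold change -3.45, SE 0.078), and Plagl1, a transcription factor of the imprinted network, 32.8 and 32.1 CPM at 1w and 2.12 and 2.48 CPM at 3w (log2 fold change -3.82, SE 0.096). Meg3, another imprinted noncoding RNA, fell 5.65-fold (log2 fold change -2.50, SE 0.087). The exception was Rtl1, a paternally expressed gene, higher at 1.12 and 1.32 CPM at 1w and 3.39 and 3.03 CPM at 3w (log2 fold change 1.40, SE 0.20, adjusted p = 7.2e-09). Igf2r, Igf2bp2, Hmga1, Asb4 and Lin28b did not pass the test. Igf2bp3, an RNA-binding protein of fetal tissue, fell 3.396-fold (log2 fold change -1.76, SE 0.20). Igf2, along with 33 other genes of the lists used here, was listed at 0 in all 8 libraries and is not analysed; genes that every heart uses, such as Actc1 and Pln, are among them.

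The contractile apparatus gained transcripts. All 26 tested genes of the adult sarcomere were higher in KO at 3w, 7 of them at least 2-fold, with a median of 0.78. Myh6, the adult mouse myosin heavy chain at chr14:54941921-54966927 on the minus strand, measured 17954 and 17687 CPM at 1w and 32140.5 and 31599 CPM at 3w (log2 fold change 0.84, SE 0.023, adjusted p = 2.2e-35). Ttn, the titin spring, measured 2162 and 2151 CPM at 1w and 4233 and 4347 CPM at 3w (log2 fold change 0.99, SE 0.025). Tcap, which caps titin at the Z-disc, had the largest rise of the group, 4.77-fold, measuring 97.9 and 96.8 CPM at 1w and 478 and 451 CPM at 3w (log2 fold change 2.26, SE 0.040, adjusted p = 3.5e-28). Lmod2, which lengthens thin filaments, rose 2.398-fold (log2 fold change 1.26, SE 0.031), and Cryab, a small chaperone of the sarcomere, 2.86-fold (log2 fold change 1.51, SE 0.030). Casq1, the skeletal form of calsequestrin that was placed on this list, rose 3.62-fold (log2 fold change 1.86, SE 0.057). Myl2, the ventricular regulatory light chain, measured 5454 and 5468 CPM at 1w and 7785 and 7747 CPM at 3w (log2 fold change 0.51, SE 0.023). In none of these genes did the 1w and 3w libraries overlap. The summed level of 7 cardiomyocyte identity genes was 34899 and 34576 CPM at 1w and 58345 and 57832 CPM at 3w.

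Fetal, skeletal and smooth muscle isoforms went mostly the other way, with 11 of 15 lower, 8 at least 2-fold, 3 higher and 1 not called (median -1.17). The list includes the smooth muscle genes Acta2, Actg2, Tagln, Cnn1 and Myl9. Acta2, Tagln and Cnn1 are also on the list of smooth muscle and pericyte markers, and the part of non-muscle cells in these counts was not tested. Tnni1, the slow skeletal troponin I that the fetal heart uses, is encoded at chr1:135779434-135810989 on the plus strand. It measured 321 and 315 CPM at 1w and 3.601 and 4.22 CPM at 3w, an 81.2-fold fall (log2 fold change -6.34, SE 0.058, adjusted p = 4.9e-62). Its adult counterpart Tnni3 measured 1998 and 1959.8 CPM at 1w and 3537 and 3459 CPM at 3w (log2 fold change 0.82, SE 0.035, adjusted p = 1.7e-13). Per kilobase of exon, Tnni3 made up 91.6% and 91.6% at 1w and 99.9% and 99.9% at 3w of the sum of both. Myh7, the slow myosin heavy chain of the fetal mouse ventricle, fell by a small amount and measured 101 and 101 CPM at 1w and 84.99 and 86.8 CPM at 3w (log2 fold change -0.24, SE 0.039, adjusted p = 1.9e-07). In control Myh7 was slightly higher at 3w, and the difference of the log2 changes was -0.37, SE 0.054, adjusted p = 5.7e-08. The 3 rises were Mybpc2, Tnni2 and Tnnt3, which encode fast skeletal forms. Mybpc2, a myosin-binding protein, measured 19.9 and 18.4 CPM at 1w and 50.1 and 46.3 CPM at 3w (log2 fold change 1.33, SE 0.058). Tpm3, a slow tropomyosin, fell 3.37-fold (log2 fold change -1.75, SE 0.061). Mybphl, a myosin-binding protein most abundant in atria, fell 17.8-fold (log2 fold change -4.15, SE 0.17). Its fall ran with the atrial genes given below.

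**Figure D3:**
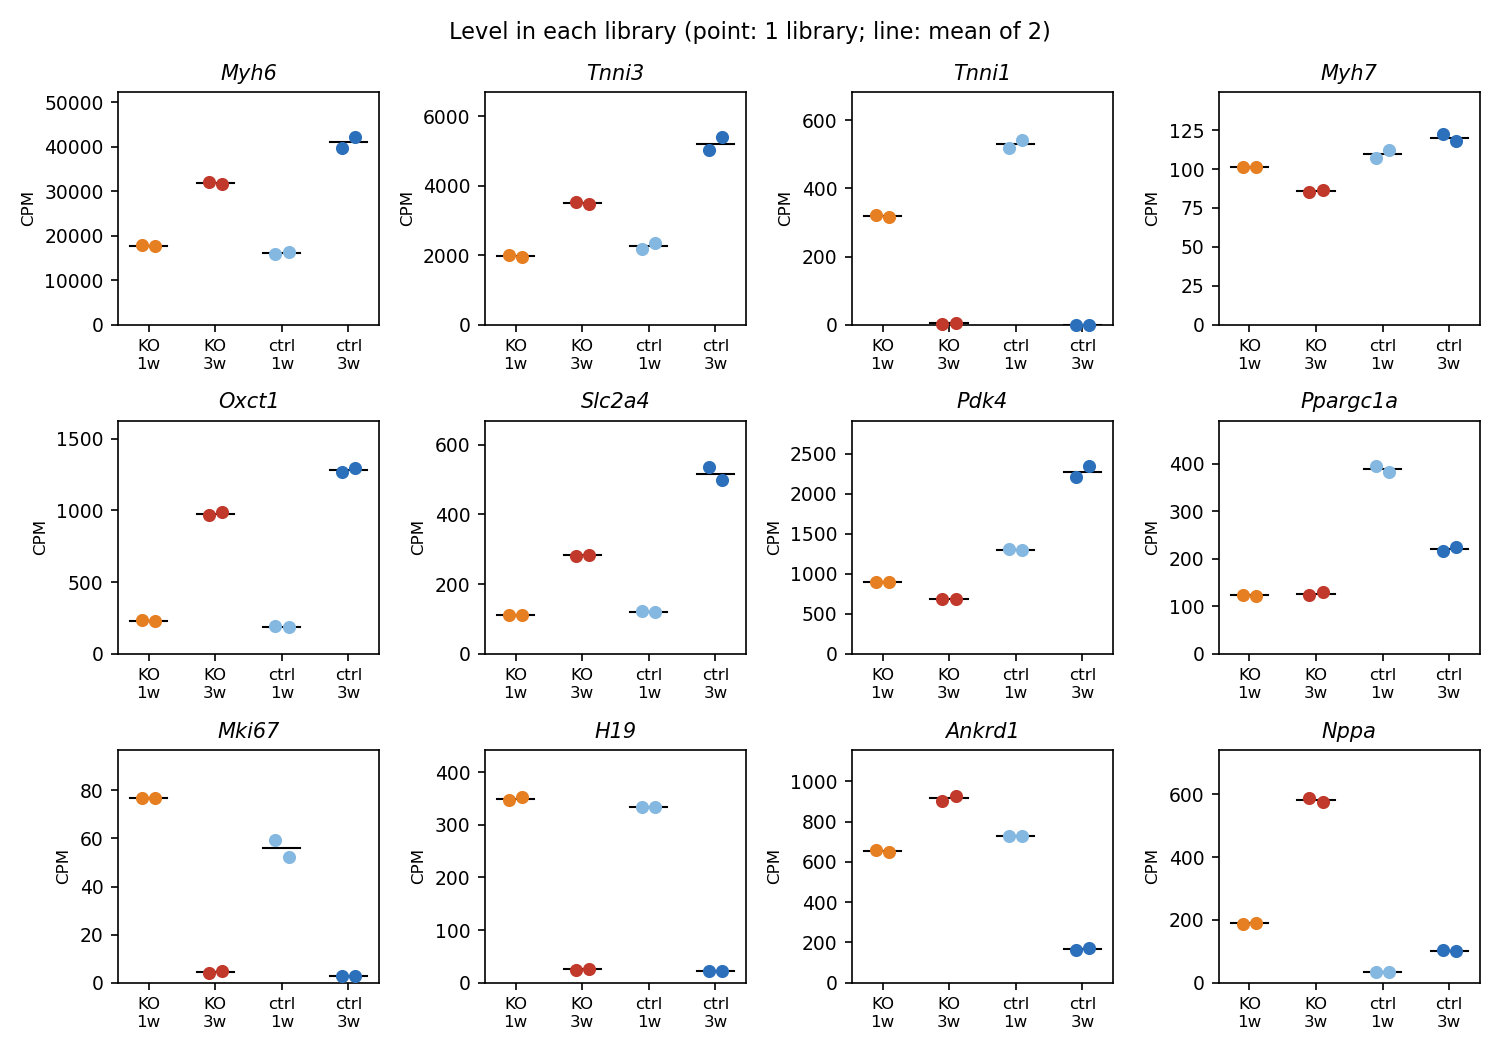
Levels in CPM (vertical axes, linear and starting at 0) of 12 genes in each library, 1 point per library and a line at the mean of the 2 libraries of a group. In KO, Myh6, Tnni3, Oxct1, Slc2a4 and Nppa are higher at 3w, and Tnni1, Mki67 and H19 are lower by more than 10-fold; Ankrd1 goes up in KO and down in control, and Pdk4 goes down in KO and up in control.

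Calcium handling genes were higher in 22 of 29 cases and lower in 6, with a median of 0.37, and 8 rose at least 2-fold. Ryr2, the calcium release channel, measured 1082 and 1091 CPM at 1w and 2299 and 2322 CPM at 3w (log2 fold change 1.09, SE 0.026, adjusted p = 6.0e-44). Atp2a2, the pump that returns calcium to the sarcoplasmic reticulum, measured 6478 and 6482 CPM at 1w and 11569 and 11671 CPM at 3w (log2 fold change 0.84, SE 0.022). Hrc, a calcium-binding protein inside that store, rose 3.01-fold (log2 fold change 1.59, SE 0.030), and Cacna2d1, a subunit of the L-type channel, 2.73-fold (log2 fold change 1.45, SE 0.035). S100a1, a calcium sensor that acts on both the channel and the pump, measured 282 and 289 CPM at 1w and 636 and 639 CPM at 3w (log2 fold change 1.16, SE 0.030). The falls included Bin1, a protein that shapes T-tubules, at 11.6 and 11.9 CPM at 1w and 2.82 and 3.14 CPM at 3w (log2 fold change -1.98, SE 0.11, adjusted p = 9.2e-24), and Cacna1h, the T-type channel of the fetal heart (log2 fold change -1.64, SE 0.21). Itpr2, the other release channel of cardiomyocytes, fell to a log2 fold change of -0.79 (SE 0.068).

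Ion channel and pump genes were higher in 22 of 28 cases, 7 at least 2-fold, with a median of 0.67. Kcnd2 and Kcnd3 encode channels of the transient outward current. Kcnd2 measured 13.9 and 12.7 CPM at 1w and 42.8 and 43.1 CPM at 3w (log2 fold change 1.69, SE 0.062, adjusted p = 1.7e-33), and Kcnd3 4.22 and 3.84 CPM at 1w and 14.7 and 15.4 CPM at 3w (log2 fold change 1.89, SE 0.097). Kcnip2, a subunit of these channels, changed by 0.66 on the log2 scale (SE 0.039). Kcna4, another channel of this current, stood at 1.77 and 2.01 CPM at 1w and 1.62 and 1.32 CPM at 3w and did not pass the test (log2 fold change -0.36, adjusted p = 0.13). Kcnj2, a channel of the inward rectifier current, rose by 0.34 on the log2 scale (SE 0.060). Kcne1, a potassium channel subunit, fell from 286 and 294 CPM to 132 and 125 CPM (log2 fold change -1.17, SE 0.036, adjusted p = 1.7e-37). The pacemaker channel Hcn4, at 3.53 and 4.21 CPM at 1w and 5.54 and 4.08 CPM at 3w, overlapped between the ages; its call (adjusted p = 0.034) was lost without KO_1w replicate 1, without KO_3w replicate 1 (adjusted p = 0.61), with no filter on low counts and with DESeq2.

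At the intercalated disc, which joins the cells, 16 of 22 genes were higher, 2 lower and 4 not called (median 0.33). Dsp, the desmosomal protein desmoplakin, measured 728 and 728 CPM at 1w and 1337 and 1341 CPM at 3w (log2 fold change 0.88, SE 0.027, adjusted p = 1.1e-37), and Des, the muscle intermediate filament, rose 2.01-fold (log2 fold change 1.01, SE 0.027). Xirp2, an actin-binding protein of the disc, rose 3.53-fold (log2 fold change 1.82, SE 0.038). The gap junction genes moved down: Gja1 (connexin 43) measured 366 and 368 CPM at 1w and 296 and 291 CPM at 3w (log2 fold change -0.32, SE 0.031), and Gjc1 (connexin 45) changed by -0.66 on the log2 scale. Of the adrenergic and muscarinic genes, 13 of 21 were higher and 4 lower (median 0.30). Adra1a, an alpha-1 adrenergic receptor, rose 12.4-fold from a low level, measuring 1.24 and 0.873 CPM at 1w and 13.3 and 13.2 CPM at 3w (log2 fold change 3.63, SE 0.14, adjusted p = 2.4e-33). Chrm2, the muscarinic receptor of the heart, rose 4.83-fold, measuring 25.3 and 27.4 CPM at 1w and 129.8 and 124 CPM at 3w (log2 fold change 2.27, SE 0.044). Adrb1, the main beta receptor, rose 1.44-fold (log2 fold change 0.53, SE 0.086). Pde4b, a phosphodiesterase that degrades cyclic AMP, fell 2.04-fold (log2 fold change -1.03, SE 0.047).

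Most branches of energy metabolism held more called rises than falls. Genes of branched-chain amino acid and ketone use had the largest median rise among the metabolic lists, 1.10, with 19 of 20 higher and 12 at least 2-fold. Oxct1, the enzyme that activates ketone bodies for oxidation, measured 233 and 228 CPM at 1w and 966 and 987 CPM at 3w, a 4.24-fold rise (log2 fold change 2.08, SE 0.030, adjusted p = 1.9e-55). Bcat2, the mitochondrial aminotransferase of branched-chain amino acids, measured 25.9 and 25.6 CPM at 1w and 97.8 and 98.6 CPM at 3w (log2 fold change 1.93, SE 0.045), and Bckdha, a subunit of the next enzyme, 20.6 and 18.1 CPM at 1w and 64.5 and 62.5 CPM at 3w (log2 fold change 1.71, SE 0.061). In none of these 3 genes did the libraries of the ages overlap.

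Of 30 genes of fatty acid uptake and oxidation, 24 were higher, 3 lower and 3 not called (median 0.45). Lpl, the lipase that frees fatty acids from lipoproteins, measured 1248 and 1246 CPM at 1w and 3502 and 3513 CPM at 3w (log2 fold change 1.49, SE 0.025, adjusted p = 3.4e-52). Pnpla2, the triglyceride lipase of lipid droplets, rose 2.48-fold (log2 fold change 1.31, SE 0.034), and Plin5, a coat protein of these droplets, 2.17-fold (log2 fold change 1.12, SE 0.041). Acadm, an acyl-CoA dehydrogenase, measured 494 and 489.9 CPM at 1w and 887 and 926 CPM at 3w (log2 fold change 0.88, SE 0.029), and Cd36, a fatty acid transporter, rose 1.38-fold (log2 fold change 0.46, SE 0.029). Pdk4, the kinase that shuts pyruvate dehydrogenase when fat is burnt, fell, measuring 895 and 892 CPM at 1w and 679 and 678 CPM at 3w (log2 fold change -0.40, SE 0.028, adjusted p = 4.2e-20). In control Pdk4 rose, measuring 1308 and 1296 CPM at 1w and 2203 and 2339.5 CPM at 3w, and the difference of the log2 changes was -1.20, SE 0.039, adjusted p = 1.9e-35. Cpt1a, the liver and fetal form of the transferase that admits fatty acids to mitochondria, fell by 0.65 on the log2 scale. Fabp3, the fatty acid binding protein of heart, did not pass the test (log2 fold change 0.02).

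Most nuclear subunits of oxidative phosphorylation rose by a small amount: 69 of 75 were higher, 5 lower and 1 not called, the median was 0.49, and 1 gene rose at least 2-fold. That gene was Cox7a1, the muscle form of a complex IV subunit, at 136 and 129 CPM at 1w and 374 and 371 CPM at 3w (log2 fold change 1.49, SE 0.093, adjusted p = 9.2e-05). Its partner Cox7a2, the widely expressed form, measured 150.5 and 153 CPM at 1w and 182 and 173 CPM at 3w (log2 fold change 0.22, SE 0.035), and Cox7a1 made up 61.5% and 59.8% at 1w and 78.4% and 79.1% at 3w of both per kilobase of exon. Sdhb of complex II measured 318 and 316 CPM at 1w and 577 and 559 CPM at 3w (log2 fold change 0.84, SE 0.031), Uqcrc1 of complex III 662 and 662 CPM at 1w and 1109.7 and 1091 CPM at 3w (log2 fold change 0.73, SE 0.028) and Atp5b of the ATP synthase 3069.8 and 3052 CPM at 1w and 4244 and 4302 CPM at 3w (log2 fold change 0.48, SE 0.024). Ndufa5 of complex I measured 151 and 143 CPM at 1w and 166 and 170.3 CPM at 3w (log2 fold change 0.19, SE 0.035). Of 13 mitochondrially encoded genes, 8 were higher and 5 not called (median 0.51). The most abundant, mt-Co1, measured 105284 and 106327 CPM at 1w and 163944 and 165296 CPM at 3w (log2 fold change 0.64, SE 0.019). Mitochondrial ribosomal proteins, which serve translation of those genes, were higher in 57 of 71 cases, with a median of 0.37. Mrpl55 had the largest rise among these, at 18.2 and 17.2 CPM at 1w and 38.4 and 39.3 CPM at 3w (log2 fold change 1.13, SE 0.058). List medians as small as 0.37 to 0.51 depend on the library scaling, whose factors differed between the ages.

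The half-site AAGGTCA, bound by estrogen-related receptors, which drive many mitochondrial genes, was searched on both strands. It was in 8 of 67 promoters of the nuclear subunits (11.9%), against 3.18% of all promoters of tested genes. The share was 4.21% for genes at least 2-fold higher at 3w and 2.67% for those at least 2-fold lower. In other mitochondrial lists the half-site was in 2 of 30 promoters (fatty acid uptake and oxidation) and 2 of 29 (tricarboxylic acid cycle). The promoter of Ndufb2, a complex I subunit, at chr6:39592315-39592614 on the plus strand, is shown with the half-site in capitals. Among nuclear subunits with the half-site in a promoter, Ndufb2 had the largest rise in a ranking that left out the genes of 1 chromosome.
Ndufb2: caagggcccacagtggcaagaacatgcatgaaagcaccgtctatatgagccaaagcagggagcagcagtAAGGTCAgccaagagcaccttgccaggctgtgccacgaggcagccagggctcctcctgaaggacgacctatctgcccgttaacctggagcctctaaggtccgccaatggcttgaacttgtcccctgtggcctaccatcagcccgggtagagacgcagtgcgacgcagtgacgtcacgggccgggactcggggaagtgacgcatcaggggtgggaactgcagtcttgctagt
Ndufb2 measured 41.9 and 43.4 CPM at 1w and 69.5 and 67.7 CPM at 3w (log2 fold change 0.69, SE 0.045, adjusted p = 1.8e-21).

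In the tricarboxylic acid cycle, 25 of 26 genes were higher (median 0.64), and Idh2, the mitochondrial isocitrate dehydrogenase, was the 1 gene not called. Idh2 was called higher with the 4 KO libraries alone (adjusted p = 0.039), without either control library of 3w (0.029 and 0.030) and with the average of KO and control (0.021). Ogdh, a subunit of the 2-oxoglutarate dehydrogenase, measured 1423 and 1439 CPM at 1w and 2765 and 2779.6 CPM at 3w (log2 fold change 0.95, SE 0.027, adjusted p = 3.9e-38). Its relative Ogdhl rose 2.98-fold, measuring 16.2 and 16.9 CPM at 1w and 49.7 and 48.7 CPM at 3w. The rise of Ogdhl was larger in control, where it measured 16.3 and 17.1 CPM at 1w and 189 and 186 CPM at 3w (difference of the log2 changes -1.90, SE 0.074, adjusted p = 2.3e-31). Mpc1, a subunit of the mitochondrial pyruvate carrier, rose 2.22-fold (log2 fold change 1.15, SE 0.057).

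Of the genes of glucose uptake and glycolysis, 17 of 22 were higher, 2 lower and 3 not called (median 0.44). Slc2a4, the insulin-regulated glucose transporter, measured 112 and 112 CPM at 1w and 281 and 284 CPM at 3w (log2 fold change 1.33, SE 0.034, adjusted p = 7.0e-42). Slc2a1, the fetal transporter, stood at 4.54 and 4.76 CPM at 1w and 4.59 and 4.74 CPM at 3w and did not pass the test (log2 fold change 0.01, SE 0.13, adjusted p = 0.97). Pfkm, the muscle phosphofructokinase, rose 1.92-fold (log2 fold change 0.94, SE 0.028). Hk2, the muscle hexokinase, measured 118 and 117 CPM at 1w and 189.6 and 189.7 CPM at 3w (log2 fold change 0.69, SE 0.035), and Hk1 263 and 271 CPM at 1w and 351 and 346 CPM at 3w (log2 fold change 0.38, SE 0.032). In KO, Hk2 made up 39.1% and 38.2% at 1w and 43.6% and 43.97% at 3w of both per kilobase of exon. In control its share was 36.6% and 37.2% at 1w and 60.97% and 61.3% at 3w. Ldhb, the lactate dehydrogenase subunit that predominates in the adult heart, made up 74.2% and 74.6% at 1w and 82.6% and 82.7% at 3w of Ldhb and Ldha together. Slc25a4, the muscle form of the ATP carrier, made up 87.6% and 87.7% at 1w and 93.4% and 93.04% at 3w of the sum with Slc25a5. The shares moved without overlap of the libraries; an exact permutation test of 2 against 2 libraries cannot reach a p under 0.05, so none is given. Gapdh was listed at 10.7 and 11.1 CPM at 1w and 172 and 108 CPM at 3w, with a wide gap between the 3w libraries (log2 fold change 3.68, SE 0.33, adjusted p = 0.00055). Gapdh has many near-identical pseudogenes, so its counts are uncertain.

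**Figure D4:**
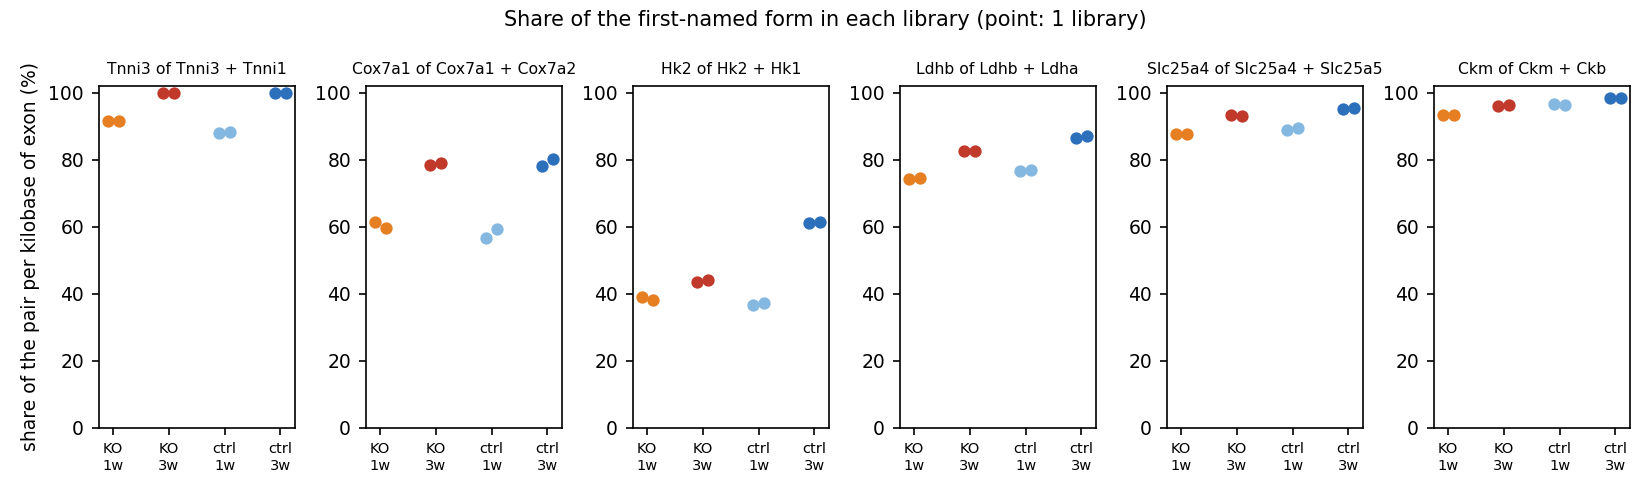
Share (%, vertical axes) of the first-named gene of a pair in the sum of both, with counts divided by exon length, in each library (1 point per library). In KO the share of Tnni3 goes from about 91.6% to 99.9% and that of Cox7a1 from 60.6% (mean of 2 libraries) to 78.8%, and the share of Hk2 at 3w is lower in KO (43.8%) than in control (61.1%).

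Glycogen metabolism was higher in 15 of 16 genes (median 0.72). Pygm, the muscle glycogen phosphorylase, measured 487 and 494 CPM at 1w and 1117 and 1113 CPM at 3w (log2 fold change 1.18, SE 0.028, adjusted p = 6.0e-44), and Ppp1r3c, which targets a phosphatase to glycogen, 57.8 and 56.8 CPM at 1w and 152 and 152 CPM at 3w (log2 fold change 1.41, SE 0.038). Stbd1, a protein that tethers glycogen to membranes, is encoded at chr5:92603041-92606579 on the plus strand. It rose 11.4-fold, measuring 1.89 and 1.72 CPM at 1w and 21.2 and 20.2 CPM at 3w (log2 fold change 3.51, SE 0.11, adjusted p = 5.3e-38). In control Stbd1 fell instead, measuring 31.3 and 30.9 CPM at 1w and 5.25 and 6.36 CPM at 3w. The difference of these log2 changes, 5.95, SE 0.14, adjusted p = 5.9e-44, was the largest positive one among genes with a mean of at least 10 CPM over the 8 libraries. Energy transfer genes were higher in 10 of 14 cases and lower in 4 (median 0.62). Ckmt2, the mitochondrial creatine kinase of striated muscle, rose 3.53-fold, measuring 514 and 513 CPM at 1w and 1827 and 1797 CPM at 3w (log2 fold change 1.82, SE 0.029). Mb, the oxygen carrier myoglobin, measured 4446 and 4395 CPM at 1w and 10351 and 10542 CPM at 3w (log2 fold change 1.24, SE 0.023), and Ckm, the cytosolic muscle creatine kinase, rose 1.59-fold (log2 fold change 0.67, SE 0.027).

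Among factors that drive mitochondrial biogenesis and nuclear receptors, 17 of 27 were higher, 5 lower and 5 not called (median 0.48). Klf15, a regulator of amino acid and lipid use, rose 7.69-fold, measuring 8.07 and 7.23 CPM at 1w and 59.9 and 58.2 CPM at 3w (log2 fold change 2.94, SE 0.062, adjusted p = 1.1e-46), and Klf9, a factor induced by glucocorticoid and thyroid hormone, 3.01-fold (log2 fold change 1.59, SE 0.042). Thrb, a thyroid hormone receptor, measured 11.8 and 10.5 CPM at 1w and 23.7 and 24.2 CPM at 3w (log2 fold change 1.10, SE 0.072), Esrrg, an estrogen-related receptor, 31.1 and 30.4 CPM at 1w and 50.5 and 50.97 CPM at 3w (log2 fold change 0.72, SE 0.049), and Rxrg, a retinoid receptor, 15.7 and 16.8 CPM at 1w and 43.00 and 44.7 CPM at 3w (log2 fold change 1.43, SE 0.058). Ppargc1a, the coactivator PGC-1 alpha, did not pass the test, at 125 and 121 CPM at 1w and 123 and 130.5 CPM at 3w (log2 fold change 0.04, SE 0.036, adjusted p = 0.28). Control held far more of it at 1w, 394 and 383 CPM at 1w and 216 and 226 CPM at 3w, and fell there; the difference of the log2 changes was 0.86, SE 0.049, adjusted p = 7.0e-23. Both KO ages lay below both control ages. Without KO_3w replicate 1, Ppargc1a was called higher in KO (adjusted p = 0.046).

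Core cardiac transcription factors went both ways, with 8 of 19 higher, 5 lower and 6 not called (median 0.06). Tbx20, a repressor needed in the developing heart, fell 2.13-fold, measuring 192 and 189 CPM at 1w and 87.95 and 91.2 CPM at 3w (log2 fold change -1.09, SE 0.035, adjusted p = 1.2e-36). Gata4 measured 165 and 170.4 CPM at 1w and 138 and 133 CPM at 3w (log2 fold change -0.31, SE 0.035). Tead1, which binds the coactivator YAP, rose 1.38-fold (log2 fold change 0.46, SE 0.033), and Meis1, linked to cell cycle exit of cardiomyocytes, 1.39-fold (log2 fold change 0.47, SE 0.065). Tbx5 did not pass the test in KO, at 26.2 and 26.2 CPM at 1w and 23.9 and 24.1 CPM at 3w (log2 fold change -0.12, SE 0.058, adjusted p = 0.059), although it did with no filter on low counts (adjusted p = 0.021) and with a mean of at least 1 CPM (0.025). In control Tbx5 rose, measuring 23.2 and 22.1 CPM at 1w and 50.4 and 49.1 CPM at 3w (difference of the log2 changes -1.26, SE 0.081, adjusted p = 9.2e-21). Nkx2-5 did not pass the test either, with 1 of the 3w libraries apart (39.6 and 39.3 CPM at 1w and 51.3 and 39.7 CPM at 3w). Meis2 was called (adjusted p = 0.014) but not without KO_1w replicate 2, without KO_3w replicate 2, with no filter on low counts or with DESeq2. Splicing regulators leaned down, with 12 of 21 lower and 8 higher (median -0.30). Ptbp1, a repressor of muscle exons, fell 3.15-fold, measuring 19.7 and 20.1 CPM at 1w and 6.53 and 6.101 CPM at 3w (log2 fold change -1.66, SE 0.098, adjusted p = 2.8e-20), and Srsf3 2.09-fold (log2 fold change -1.07, SE 0.046). Rbm24, a muscle splicing factor, rose 1.17-fold (log2 fold change 0.23, SE 0.033). The call of Rbm20, the regulator of titin splicing (log2 fold change -0.08, adjusted p = 0.028), was lost on leaving out any of the 4 KO libraries or either control library of 3w, with adjusted p-values of 0.054 to 0.41, with DESeq2 (0.109) and with DESeq2 size factors in edgeR (0.062).

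Of 10 natriuretic and stretch-response genes, 6 were higher and 3 lower (median 0.49). Nppa, the atrial natriuretic peptide, measured 189 and 189 CPM at 1w and 590.1 and 577 CPM at 3w, a 3.09-fold rise (log2 fold change 1.63, SE 0.032, adjusted p = 4.3e-48). In control it measured 34.4 and 34.4 CPM at 1w and 104 and 101 CPM at 3w, and the difference of the log2 changes did not pass the test (0.05, SE 0.051, adjusted p = 0.48). Nppb, the other natriuretic peptide, rose in KO, measuring 131 and 136 CPM at 1w and 190.5 and 187 CPM at 3w (log2 fold change 0.50, SE 0.036), and fell in control (difference 0.94, SE 0.054, adjusted p = 7.2e-23). Ankrd1, a stretch-responsive ankyrin repeat protein encoded at chr19:36111961-36120099 on the minus strand, measured 662 and 652 CPM at 1w and 905 and 925 CPM at 3w in KO (log2 fold change 0.48, SE 0.029, adjusted p = 9.4e-23). In control it fell, measuring 727 and 729 CPM at 1w and 165 and 172 CPM at 3w, and the difference was 2.59, SE 0.042, adjusted p = 5.2e-52. In KO the 3w libraries thus held more Ankrd1 than any other libraries of the series.

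Heat shock proteins held the largest rise among genes with a mean of at least 10 CPM in KO, and their list was added after those values had been seen. Of 28 such genes, 26 were higher, 11 at least 2-fold, 1 lower and 1 not called (median 0.65). Hspa1a, an inducible chaperone, measured 0.899 and 0.635 CPM at 1w and 99.9 and 105 CPM at 3w (log2 fold change 7.04, SE 0.092, adjusted p = 5.1e-58). Hspa1b is a near-identical copy and measured 0.944 and 1.75 CPM at 1w and 140.2 and 118 CPM at 3w, so reads may have been split between the copies. Dnajb1, their co-chaperone, measured 12.9 and 12.6 CPM at 1w and 179 and 181 CPM at 3w, a 14.1-fold rise (log2 fold change 3.82, SE 0.049, adjusted p = 1.5e-58). The small heat shock proteins Hspb8 and Hspb1 rose 4.31-fold and 3.34-fold (log2 fold changes 2.11 and 1.74). Hspa1a also rose in control, 0.546 and 0.383 CPM at 1w and 34.9 and 32.2 CPM at 3w, and the difference of the changes did not pass the test (0.81, SE 0.34, adjusted p = 0.057), whereas that of Dnajb1 did (1.17, SE 0.082, adjusted p = 6.5e-19).

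Immediate early genes, which respond fast to many stimuli, were mixed: 8 of 26 higher, 12 lower and 6 not called (median -0.09). Jun measured 76.05 and 73.6 CPM at 1w and 257 and 236 CPM at 3w (log2 fold change 1.72, SE 0.044, adjusted p = 5.2e-24), and Fos 50.2 and 49.4 CPM at 1w and 126 and 119 CPM at 3w (log2 fold change 1.29, SE 0.041). Egr1 fell slightly in KO, measuring 152 and 152 CPM at 1w and 123 and 117 CPM at 3w (log2 fold change -0.33, SE 0.037), and rose in control, 31.6 and 35.3 CPM at 1w and 157 and 155 CPM at 3w (difference -2.55, SE 0.057, adjusted p = 5.9e-44). Arc, an activity-regulated gene also among the 10 largest rises of that kind, measured 1.39 and 1.297 CPM at 1w and 55.1 and 53.8 CPM at 3w (log2 fold change 5.33, SE 0.093). Of 24 genes of the integrated stress and unfolded protein responses, 11 were higher, 6 lower and 7 not called. Herpud1, which acts in degradation of proteins from the endoplasmic reticulum, rose 6.07-fold, measuring 47.6 and 47.5 CPM at 1w and 290.1 and 287 CPM at 3w (log2 fold change 2.60, SE 0.035, adjusted p = 4.5e-57), and Chac1, a target of ATF4, 7.54-fold (log2 fold change 2.91, SE 0.098). Gdf15, a stress hormone, measured 2.13 and 2.04 CPM at 1w and 9.64 and 9.13 CPM at 3w (log2 fold change 2.17, SE 0.14), and fell in control from an already low level (difference 2.91, SE 0.37, adjusted p = 1.3e-09). Atf4 itself, at 97.9 and 103 CPM at 1w and 94.3 and 95.5 CPM at 3w, did not pass the test (log2 fold change -0.08, SE 0.038, adjusted p = 0.056), and was called lower in 6 of the alternatives and higher with the average of KO and control (adjusted p = 0.0030). Other named rises were 2210407C18Rik, Psca, Xdh and Art1, with log2 fold changes of 7.01, 4.76, 3.71 and 3.59. Xdh, which makes urate, measured 2.38 and 2.54 CPM at 1w and 31.8 and 32.4 CPM at 3w.

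Extracellular matrix genes, mostly products of non-muscle cells, were lower in 29 of 30 cases, 25 at least 2-fold, with a median of -1.57; Col8a1 was the exception (log2 fold change 0.66, SE 0.088). Postn, the matrix protein periostin of growing and injured hearts, measured 389 and 394 CPM at 1w and 42.7 and 44.4 CPM at 3w (log2 fold change -3.17, SE 0.039, adjusted p = 2.8e-59). Col1a1, the main fibrillar collagen chain, measured 364 and 356 CPM at 1w and 87.3 and 86.5 CPM at 3w (log2 fold change -2.05, SE 0.037). Tnc, tenascin C, fell 9.74-fold (log2 fold change -3.28, SE 0.16), and Lox, which cross-links collagen, 5.81-fold (log2 fold change -2.54, SE 0.12). The basement membrane chain Col4a1 fell less, measuring 823 and 801 CPM at 1w and 493 and 485 CPM at 3w (log2 fold change -0.73, SE 0.032). The log2 change was higher in KO than in control for 21 of the 30 genes and lower for 3, by the test of the difference (17.6% and 17.9% over all genes tested).

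Markers of other cells moved with these genes, and their part in the results was not tested. Fibroblast markers were lower in 12 of 14 cases, 1 was higher (Gsn) and the summed level was 664 and 649.8 CPM at 1w and 496 and 505 CPM at 3w. Dcn, a fibroblast proteoglycan, measured 235 and 235 CPM at 1w and 118 and 123 CPM at 3w (log2 fold change -0.96, SE 0.036), and Pdgfra 23.3 and 22.2 CPM at 1w and 16.9 and 17.6 CPM at 3w (log2 fold change -0.40, SE 0.068). The defining marker Tcf21 was listed at 0 in every library. Endothelial markers were lower in 15 of 19 cases (summed 1688 and 1681 CPM at 1w and 659 and 685 CPM at 3w). Pecam1 measured 180.2 and 181 CPM at 1w and 68.1 and 71.7 CPM at 3w (log2 fold change -1.37, SE 0.038), and Cldn5, a tight junction protein, fell 6.06-fold (log2 fold change -2.60, SE 0.082). Vwf, Ly6c1 and Npr3 did not pass the test. Smooth muscle and pericyte markers were lower in 9 of 12 cases (summed 2154 and 2180.4 CPM at 1w and 1687 and 1686 CPM at 3w), and the log2 change was higher in KO than in control for 10 of 12. Myh11, the smooth muscle myosin, measured 47.2 and 45.6 CPM at 1w and 22.9 and 23.3 CPM at 3w in KO and 20.5 and 20.3 CPM at 1w and 2.57 and 2.76 CPM at 3w in control (difference 1.93, SE 0.12, adjusted p = 1.6e-21). Rgs5, a pericyte gene, measured 169 and 176 CPM at 1w and 165 and 169 CPM at 3w in KO, which did not pass the test (log2 fold change -0.05, SE 0.035, adjusted p = 0.18) but did with no filter on low counts (adjusted p = 0.038), and fell in control (difference 1.39, SE 0.051, adjusted p = 1.4e-32).

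Macrophage and myeloid markers were lower in 11 of 19 cases, higher in 3 and not called in 5 (summed 189.8 and 184 CPM at 1w and 158 and 164 CPM at 3w). The median of -0.66 was -0.41 without KO_1w replicate 1 and -0.45 without KO_3w replicate 1. Csf1r, the macrophage growth factor receptor, measured 28.4 and 27.4 CPM at 1w and 20.5 and 20.7 CPM at 3w (log2 fold change -0.43, SE 0.064), and Ptprc, the pan-leukocyte antigen CD45, 7.301 and 8.23 CPM at 1w and 2.44 and 3.07 CPM at 3w (log2 fold change -1.49, SE 0.14). Lyve1, a marker of resident macrophages and lymphatic vessels, rose 1.86-fold (log2 fold change 0.89, SE 0.10). Epicardial markers were lower in 10 of 11 cases (summed 69.5 and 67.5 CPM at 1w and 19.8 and 18.8 CPM at 3w). Aldh1a2, which makes retinoic acid, fell 15.4-fold (log2 fold change -3.94, SE 0.13), and Wt1, the epicardial transcription factor, 6.92-fold (log2 fold change -2.79, SE 0.11). Upk3b, a mesothelial surface protein, measured 10.1 and 9.77 CPM at 1w and 4.84 and 4.602 CPM at 3w in KO and rose in control, 2.06 and 2.21 CPM at 1w and 9.18 and 8.48 CPM at 3w (difference -3.12, SE 0.17, adjusted p = 4.0e-24).

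Atrial genes were among the largest falls in KO. Bmp10, a secreted factor of atrial muscle, measured 179.5 and 179.9 CPM at 1w and 0.0353 and 0.105 CPM at 3w. The 3w values came from 1 and 3 counts (log2 fold change -11.25, SE 0.12, adjusted p = 9.0e-63). With so few counts, this SE understates the uncertainty of the fold change. Myl7, the atrial regulatory light chain, measured 92.9 and 96.3 CPM at 1w and 1.98 and 1.71 CPM at 3w (log2 fold change -5.68, SE 0.084, adjusted p = 5.5e-55), Myl4, the atrial essential light chain, 114 and 114 CPM at 1w and 7.38 and 7.36 CPM at 3w (log2 fold change -3.95, SE 0.062), and Sln, the atrial inhibitor of the calcium pump, 15.5 and 16.7 CPM at 1w and 0.459 and 0.209 CPM at 3w (log2 fold change -5.58, SE 0.18). In control these 4 genes rose together, from a sum of 19.3 and 21.3 CPM to 64.7 and 63.0 CPM. The whole atrial and conduction list had 9 of 15 lower, 5 higher (Nppa, Kcnj3, Kcnj5, Myl1 and Hcn4) and 1 not called. Atrial and ventricular myocytes were not separated by a step the labels describe, and the share of atrial tissue in each library was not tested.

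The change with age in KO was then tested against that in control. The difference of the 2 log2 changes passed an adjusted p under 0.05 in edgeR's quasi-likelihood test for 5215 genes (35.6%), 2587 (17.6%) with a higher value in KO and 2628 (17.9%) with a lower one. DESeq2 called 3351. The difference was at least 2-fold for 1123 genes (7.66%). In control, 10388 genes (70.8%) were called with age, 1411 (9.62%) at least 2-fold higher and 2551 (17.4%) at least 2-fold lower. The median size of a log2 change was 0.47 in KO and 0.55 in control. Among the 5215 genes, 2970 moved in the same direction in both arms and were called in both. Their change was smaller in KO for 2295 and larger for 675. A further 413 moved in opposite directions, each called in its own arm.

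Metabolic lists lay mostly on the side of a smaller rise in KO. The difference was lower in KO for 56 of 75 nuclear oxidative phosphorylation subunits and higher for 3, with medians of the log2 change of 0.49 in KO and 0.74 in control. It was lower for 49 of 71 mitochondrial ribosomal proteins, 21 of 26 genes of the tricarboxylic acid cycle, 21 of 30 of fatty acid use and 14 of 20 of branched-chain amino acid and ketone use. The median difference was -0.27 for the nuclear subunits, -0.28 for the ribosomal proteins and -0.22 for fatty acid use. Differences this small depend on the library scaling, whose factors changed with age by unlike amounts in KO and control. List medians of the difference were not computed under the alternatives. Sdhb, for example, differed by -0.50, SE 0.043, adjusted p = 5.6e-15, and Slc2a4 by -0.77, SE 0.048, adjusted p = 4.0e-21. Adult sarcomere genes were lower for 13 of 26 and higher for 7, and their medians were close, 0.78 and 0.79. Myh6 rose less in KO (-0.50, SE 0.032, adjusted p = 9.0e-19) and Myl2 more (0.40, SE 0.033, adjusted p = 5.7e-16). Tnni1 fell less in KO (4.02, SE 0.18, adjusted p = 4.7e-27), and control measured 518 and 542 CPM at 1w and 0.501 and 0.247 CPM at 3w, below KO at 3w. Intercalated disc genes were higher in KO for 14 of 22. For the mitosis list the difference was called for 6 of 37, all of them with a smaller fall in KO. In DNA replication 6 were higher and 5 lower of 31. E2f1 fell less in KO (2.13, SE 0.31, adjusted p = 7.2e-08), and Pcna fell more (-0.67, SE 0.093, adjusted p = 1.9e-08). The sex-linked and atrial genes ran opposite ways in KO and control. Other cell markers differed too. The log2 change was lower in KO for 14 of 19 macrophage and myeloid markers and 10 of 11 epicardial markers, and higher for 10 of 12 smooth muscle and pericyte markers. No member of these 3 lists was called the other way. The part of sex, of atrial tissue and of other cells in each of these differences cannot be told apart from that of Carm1.

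**Figure D5:**
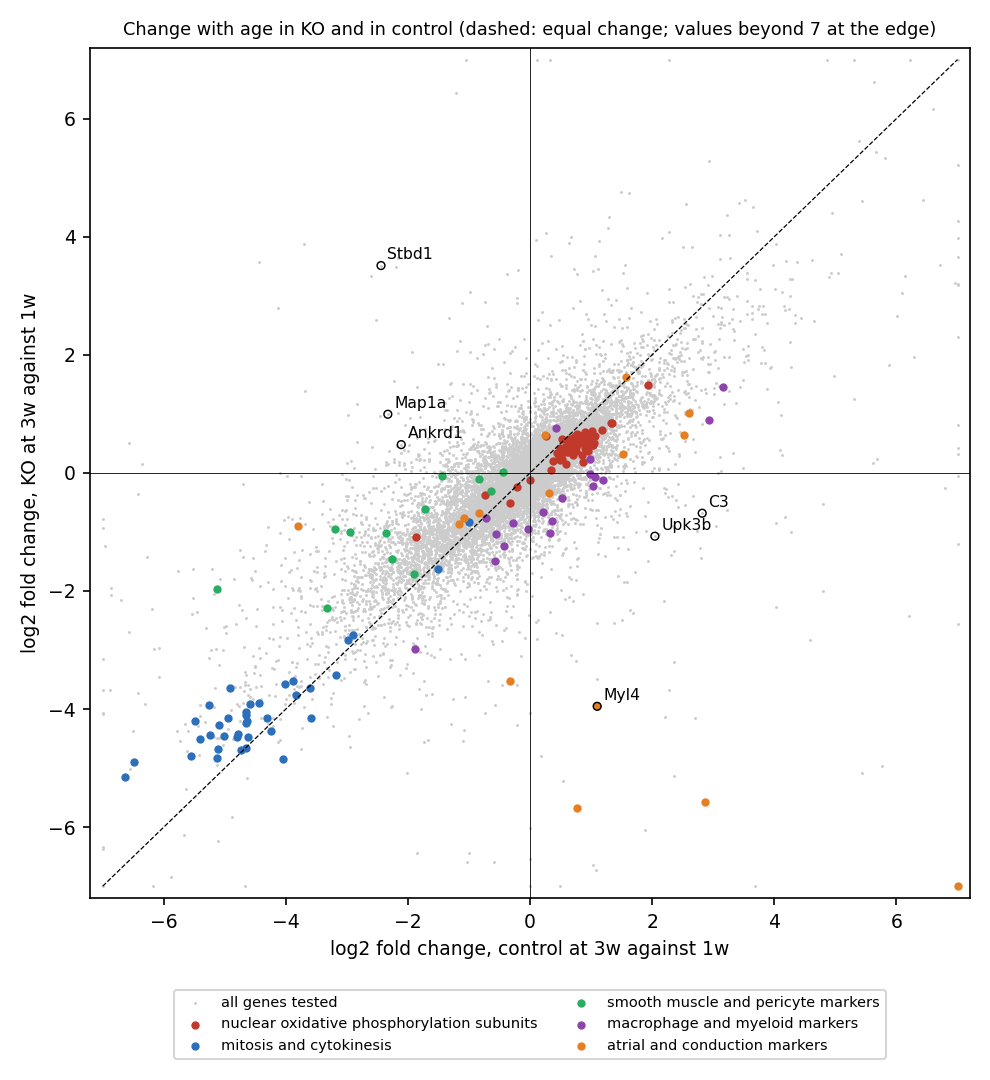
Log2 fold change of 3w against 1w in control (horizontal axis) and in KO (vertical axis) for the genes tested, 1 point per gene, with 5 gene lists in colour, 6 genes circled and named, and a dashed line of equal change. Nuclear oxidative phosphorylation subunits lie mostly below the line among rises, smooth muscle and pericyte markers above it among falls, and Stbd1, Map1a and Ankrd1 rise in KO while falling in control.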

How the data were processed

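The deposited table held whole-number counts for 54752 genes in 8 libraries. Per the submitters' processing notes, the authors used FastQC, MultiQC, HISAT2, featureCounts and DESeq2 with the mm10 genome; for versions, strand and annotation, nothing is given in the sources used here. GENCODE M21 named 54723 of the IDs. Genes were filtered with edgeR's filterByExpr (minimum count 10, minimum total 15), which kept 14665. TMM factors scaled the libraries. A single model of the 4 groups of 2 (4 residual degrees of freedom) was fitted in edgeR, and contrasts were tested by its quasi-likelihood F-test with robust dispersions. P-values were adjusted over the 14665 genes by Benjamini-Hochberg, and calls are at an adjusted p under 0.05. SEs were derived from the F statistic, as the size of the log2 fold change over the square root of F. They understate the uncertainty where a group has few counts. The procedure was tested on simulated data.

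Members, comparisons and the 43 gene lists were chosen with earlier results of these data known. Named genes were Carm1 and the sex-linked genes, the 10 largest rises and falls with a mean of at least 10 CPM, each list's anchors with, at most, 4 of its called members of at least 5 CPM, and the 8 largest differences from control each way. Further genes are named to account for list members outside these counts and were chosen after their values were seen. Alternatives were the size factors, filters, DESeq2, a replicate block, removal of mitochondrially encoded genes, the KO libraries alone, the average of KO and control, and leaving out each library. A few genes of these rules are not reported here. The list of heat shock proteins was added after their values had been seen. Software was R 4.3.3, edgeR 4.0.16, limma 3.58.1 and DESeq2 1.42.0.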

Additional observations from a re-analysis of the deposited data

Results flagged for a closer look

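The results below stand out because the change with age differed between KO and control by the test of the difference itself. They comprise the number of such genes (5215), the number with opposite called directions (413), the named genes with opposite called directions, and the named genes with the largest differences. The 4 Y-linked genes are left out here and given at the start of the report. Values are the log2 change in KO less that in control.

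Among atrial genes the difference was -18.65 for Bmp10, -8.44 for Sln, -6.85 for Mybphl, -6.45 for Myl7 and -5.05 for Myl4. Bmp10 had very few counts in KO at 3w, as given above, so the size of its difference is uncertain. X-linked genes that escape inactivation differed by 1.68 (Kdm6a), 1.64 (Eif2s3x) and 1.33 (Kdm5c). In the muscle and its metabolism, the difference was 5.95 for Stbd1, 4.02 for Tnni1, 2.62 for Gapdh, -1.20 for Pdk4 and -0.37 for Myh7. The call of Gapdh was lost with no filter on low counts (adjusted p = 0.0502), with the replicate block (0.0505), and without any 1 of the 4 control libraries or either KO library of 1w (0.073 to 0.17). Stretch and stress genes gave 2.59 for Ankrd1, 0.94 for Nppb, 2.91 for Gdf15, 2.40 for Nr4a3 and -2.55 for Egr1. Markers of other cells gave -3.12 for Upk3b, -2.51 for Msln, -0.96 for Csf1r and 1.86 for Ighm.

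Of the remaining genes, Map1a, a microtubule-associated protein, measured 15.8 and 16.3 CPM at 1w and 32.5 and 31.3 CPM at 3w in KO and 14.9 and 16.2 CPM at 1w and 2.91 and 3.39 CPM at 3w in control (difference 3.32). C3, the central complement protein, measured 39.5 and 39.3 CPM at 1w and 23.7 and 25.4 CPM at 3w in KO and 5.41 and 4.59 CPM at 1w and 34.6 and 34.9 CPM at 3w in control (difference -3.50). Kcnj14, a potassium channel, rose in both arms, and less in KO (difference -3.36). Gm6969, a predicted gene, measured 72.5 and 75.1 CPM at 1w and 97.03 and 95.8 CPM at 3w in KO and 7.18 and 5.36 CPM at 1w and 104 and 105 CPM at 3w in control (difference -3.71). Fbn2, the fetal fibrillin, and Plekhh1 fell in both arms and less in KO, with differences of 2.52 and 2.42.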

How the results depend on the processing

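The counts of called genes in KO stayed within 1.5 times under the alternatives run (8313 with DESeq2 to 11260 with the average of KO and control, and 8967 to 10062 when 1 library was left out). The count of genes whose change differed between KO and control was 5215 and fell to 3351 with DESeq2, with 1656 higher and 1695 lower in KO, against 2587 and 2628; the cause was not tested. A replicate block gave 9895 calls in KO and 5073 for the difference. Libraries with the same number did not deviate together (correlations of -0.022 to 0.0083 between groups). Deviations within KO were little above counting noise, so these correlations cannot tell whether the numbers pair libraries. DESeq2 size factors in edgeR gave 9975 calls in KO, 4966 higher and 5009 lower at 3w.

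Averaging KO with control turns the sign, by its construction, where control moved the other way: Ddx3y 1.40, Eif2s3y 0.21, Uty 0.44, Kdm5d 0.20, Pdk4 0.20, Ppargc1a -0.39, Tbx5 0.51, Ankrd1 -0.82, Egr1 0.94, Atf4 0.088, Csf1r 0.049, Ighm -0.015, Upk3b 0.49, Msln 0.17, Eif2s3x -0.012, Kdm5c -0.019, Map1a -0.67 and C3 1.07. Medians turned for cardiac transcription factors (-0.084), interferon response (-0.019), epicardial markers (0.013), Y-linked genes (0.32) and X-linked escape genes (-0.015). Of genes that were not called, Slc2a1 changed sign with no filter (-0.028) and with a mean of at least 1 CPM (-0.014), and ranged from -0.030 to 0.050 when 1 library was left out. Arntl did so with DESeq2 size factors (0.0013), with DESeq2 (0.0031) and ranged from -0.062 to 0.051 when 1 library was left out. The arginine methyltransferase median ranged from -0.172 to 0.0072 when 1 library was left out, and the interferon median was -0.019 with a mean of at least 1 CPM. The cause of these changes near 0 was not tested.

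Among named genes, calls of Hba-a1 (also without CTRL_1w replicate 1 and with no filter), Utp14a, Hcn4, Meis2 and Rbm20 were lost without at least 1 of the KO libraries, that of Rbm20 also without either control library of 3w and with DESeq2 size factors in edgeR, and that of Gapdh for the difference without any control library or either KO library of 1w, with no filter and with the replicate block. The lymphocyte median of -3.76 rests on low counts and was -1.53 with a mean of at least 1 CPM. Shares of paired genes without length scaling kept their direction.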

Other observations

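Clock genes were higher in KO at 3w in 10 of 17 cases and lower in 4 (median 0.17). Nr1d1, a repressor of the clock, measured 18.4 and 18.2 CPM at 1w and 67.4 and 67.4 CPM at 3w (log2 fold change 1.88, SE 0.051, adjusted p = 9.3e-41), and Nr1d2 33.9 and 34.2 CPM at 1w and 68.2 and 70.9 CPM at 3w (log2 fold change 1.03, SE 0.045). Cry1, another repressor, fell 2.59-fold (log2 fold change -1.37, SE 0.10), while Arntl (BMAL1), at 8.33 and 7.702 CPM at 1w and 8.05 and 7.91 CPM at 3w, did not pass the test (log2 fold change -0.01, SE 0.098, adjusted p = 0.94). Tef, an output factor of the clock, rose 1.84-fold in KO and more in control (difference -1.07, SE 0.060, adjusted p = 2.7e-23). Antioxidant and glutathione genes were higher in 20 of 26 cases, 7 at least 2-fold, and lower in 3 (median 0.62). Gstm1, a glutathione transferase with close paralogs, measured 20.4 and 20.04 CPM at 1w and 123 and 124 CPM at 3w (log2 fold change 2.61, SE 0.045, adjusted p = 3.0e-51). Nqo1, a quinone reductase induced by NRF2, rose 3.77-fold (log2 fold change 1.92, SE 0.080), more than in control (difference 1.16, SE 0.11, adjusted p = 4.1e-13). Cat (catalase) measured 142 and 137 CPM at 1w and 226 and 232 CPM at 3w (log2 fold change 0.72, SE 0.034), and Sod2, the mitochondrial superoxide dismutase, 229 and 224 CPM at 1w and 339 and 339 CPM at 3w (log2 fold change 0.59, SE 0.032).

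Of 8 arginine methyltransferases, 2 were higher, 3 lower and 3 not called. Prmt1, the most active member of the family in many tissues, measured 53.9 and 51.7 CPM at 1w and 35.9 and 36.4 CPM at 3w (log2 fold change -0.55, SE 0.049, adjusted p = 1.4e-15), and Prmt5 32.8 and 31.4 CPM at 1w and 37.4 and 38.5 CPM at 3w (log2 fold change 0.24, SE 0.053). Interferon and class I genes were higher in 10 of 26 cases, lower in 6 and not called in 10, with no common direction (median 0.13). Xaf1, an interferon-induced gene, fell 3.59-fold (log2 fold change -1.85, SE 0.12). H2-K1 rose and H2-D1 fell (log2 fold changes 0.40 and -0.71), but these class I genes share sequence and their counts are uncertain. Erythroid transcripts were higher in 5 of 5 cases, but the call of Hba-a1 was lost without any 1 of the 4 KO libraries (adjusted p = 0.13 to 0.16), without CTRL_1w replicate 1 (0.0503) and with no filter on low counts (0.089). Hbb-bs, an adult beta globin with near-identical copies, measured 22.96 and 21.8 CPM at 1w and 128 and 125 CPM at 3w (log2 fold change 2.50, SE 0.063). Lymphocyte markers were lower in 8 of 10 cases from very low levels, and Cd3e, with no counts in KO at 3w, was at least 6.93-fold lower by a floor of 3 counts over the group. Schwann and neuronal markers were lower in 3 of 5 cases. None of 6 adipocyte markers passed the count filter.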
